A study of Mus musculus with 8 samples.

Results

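The data described here are the levels of 10 immediate-early transcription factor genes in 4 single-cell libraries of mouse myeloid cells. The genes are the Fos family members Fos, Fosb, Fosl1 and Fosl2, the Jun family members Jun, Junb and Jund, and Atf3, Egr1 and Nr4a1. They were listed by name, with earlier results of these data known, and make up 10 of the 32285 genes of each matrix. MC38 is a mouse colon carcinoma line grown in C57BL/6J mice. CD45+CD11b+Ly6Chi cells were sorted from the tumors or from the blood of tumor-bearing animals, either untreated (control) or 3 days after local irradiation of the tumor with a single dose of 20 Gy (IR). Each library mixed cells of WT mice (Ythdf2 fl/fl) with cells of cKO mice (Lyz Cre+; Ythdf2 fl/fl), in which Cre is driven by the lysozyme locus of myeloid cells. All mice therefore carried the floxed Ythdf2 allele and a tumor. The animals were young adults of both sexes, pooled before sorting. Hashtag antibodies separated the genotypes, which gave 8 groups (4 libraries and 2 hashtags), each from 1 pool. With 1 pool per group there is no replicate check, so every interval given covers counting error only and no p-value is given.

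Immediate-early genes are transcribed within minutes of a stimulus without new protein synthesis, and their short-lived mRNAs decay soon after. Fos and Jun proteins pair through leucine zippers to form AP-1, a factor that binds DNA at enhancers of inflammatory and growth genes. Egr1 is a zinc finger factor, Nr4a1 (Nur77) is an orphan nuclear receptor required for nonclassical monocytes, and Atf3 is a stress-induced bZIP factor that restrains inflammatory genes. The same genes are known to be induced when tissue is cut and digested. Enzymatic digestion of tumors is described for the flow cytometry of the study. No source used here says whether the cells for sequencing were prepared alike, so tissue and cell preparation cannot be told apart.

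Promoters of 8 members were found in the RefSeq table of mouse promoters (build GRCm38.p6), each spanning 250 bases before to 50 bases after a transcript start. Fosl1 is missing from it, and the Egr1 promoter was not used here. Those of Fos, Fosb, Atf3, Nr4a1 and Jun are shown as examples of windows with and without the letters searched. Those of Fosl2, Jund and Junb, which also had their highest blood level in WT control, are not printed. Capitals mark TGACG on either strand, the core letters of the cAMP response element, a site bound by CREB and ATF factors. It was chosen after TGACGTCA had no match in these promoters.
Fos promoter, chr12:85473640-85473939, plus strand: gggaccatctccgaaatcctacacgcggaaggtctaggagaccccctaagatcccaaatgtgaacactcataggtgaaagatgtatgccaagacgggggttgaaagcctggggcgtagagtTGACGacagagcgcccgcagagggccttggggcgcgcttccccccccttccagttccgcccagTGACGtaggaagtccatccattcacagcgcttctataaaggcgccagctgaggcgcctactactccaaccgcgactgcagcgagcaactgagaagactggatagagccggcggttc
Fosb promoter, chr7:19309996-19310295, minus strand: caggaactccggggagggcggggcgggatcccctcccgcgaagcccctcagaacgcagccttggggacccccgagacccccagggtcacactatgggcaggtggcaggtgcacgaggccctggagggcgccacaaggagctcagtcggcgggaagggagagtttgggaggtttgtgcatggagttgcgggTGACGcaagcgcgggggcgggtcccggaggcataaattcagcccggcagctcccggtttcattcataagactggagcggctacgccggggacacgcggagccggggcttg
Atf3 promoter, chr1:191183284-191183583, minus strand: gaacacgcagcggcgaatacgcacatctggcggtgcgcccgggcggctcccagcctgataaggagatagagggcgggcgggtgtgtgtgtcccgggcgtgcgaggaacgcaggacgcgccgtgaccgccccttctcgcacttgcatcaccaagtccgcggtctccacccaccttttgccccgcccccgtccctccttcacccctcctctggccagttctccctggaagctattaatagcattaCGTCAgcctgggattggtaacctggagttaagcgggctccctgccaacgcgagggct
Nr4a1 promoter, chr15:101266596-101266895, plus strand: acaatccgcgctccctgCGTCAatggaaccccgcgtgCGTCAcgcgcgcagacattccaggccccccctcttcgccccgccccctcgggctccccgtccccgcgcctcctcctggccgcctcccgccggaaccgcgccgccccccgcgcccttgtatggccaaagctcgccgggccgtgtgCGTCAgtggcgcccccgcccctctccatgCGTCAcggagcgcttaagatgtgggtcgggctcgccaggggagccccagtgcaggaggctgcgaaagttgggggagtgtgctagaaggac
Jun promoter, chr4:95052173-95052472, minus strand: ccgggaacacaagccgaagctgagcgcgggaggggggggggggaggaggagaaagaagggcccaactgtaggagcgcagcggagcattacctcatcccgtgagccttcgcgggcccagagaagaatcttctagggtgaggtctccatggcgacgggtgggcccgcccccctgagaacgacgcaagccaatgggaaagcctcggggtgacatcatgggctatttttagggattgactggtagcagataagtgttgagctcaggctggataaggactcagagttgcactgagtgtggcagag
TGACG was present in the Fos, Fosb, Junb, Atf3 and Nr4a1 windows and in 20.8% of the 32851 promoters of the same length. The Nr4a1 window held 4 copies, on the other strand, and the Fos window held 2. No match was found in the Jun, Jund or Fosl2 windows. The Jund window (chr8:70697489-70697788) ends before the GENCODE gene start at 70698949, so that start was not searched. The Fosl2 (chr5:32136222-32136521), Atf3 and Nr4a1 windows lie inside their GENCODE genes, and the outermost starts were not searched. The full palindrome TGACGTCA (1.79% of all promoters), the AP-1 letters TGANTCA (7.81%) and the CArG box bound by serum response factor (1.63%) had no match in any of the 8 windows.

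After filtering, 27427 cells were kept, between 4667 and 8397 per library, and the summed depth of a group ranged from 18870720 to 24699276 UMIs. Cells of the blood groups had a median depth of 2871 to 3229 UMIs, and those of the tumor groups had 6011 to 8550. Lyz2, at whose locus Cre was inserted, lay between 5617 and 14146 CPM in the WT groups and between 81.3 and 138 CPM in the cKO groups. Ythdf2 tags went the other way, at 33.0 to 55.4 CPM in the groups labelled WT and 303 to 374 CPM in those labelled cKO. Tags at the 3′ end can lie outside the deleted part, and the source of their higher level in cKO was not tested. The deletion itself is not shown by these tags. The genotype names below rest on the hashtags, with which the Lyz2 levels went, and directions between genotypes carry this limit. As the cKO groups also had little Lyz2, effects of Ythdf2 and of Lyz2 cannot be told apart. Between 7 and 32 kept barcodes were shared by any pair of libraries. The sort was for myeloid cells, but a cluster of 493 fibroblast-like cells, led by Sparc, Col3a1 and Dcn, was found in the tumor libraries.

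Levels are given as CPM, the UMIs of a gene scaled to 1000000 UMIs of all genes in its group, in the order WT control, cKO control, WT IR and cKO IR. Fos (ENSMUSG00000021250, mm10 chr12:85473890-85477273), the prototype AP-1 subunit, stood at 3688, 2476, 2496 and 2210 CPM in blood and at 793, 826, 951 and 811 CPM in tumor. All 4 blood groups were above all 4 tumor groups. Fosb (chr7:19302696-19310051), a close homolog of Fos, stood at 469, 188, 221 and 179 CPM in blood and at 553, 639, 481 and 475 CPM in tumor. The WT control was the highest blood group for both genes. Fosl2 (chr5:32135801-32157842) was at 192, 121, 158 and 124 CPM in blood and at 245, 215, 260 and 265 CPM in tumor, so that its tumor groups all exceeded its blood groups. Fosl1 (chr19:5447547-5455946), known in invasive mesenchymal and carcinoma cells, had 34, 19, 13 and 3 UMIs in the blood groups, under the minimum of 100 UMIs used for comparisons within blood, and 47.7, 92.5, 40.3 and 21.1 CPM in tumor.

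The Jun family was expressed in every group. Junb (chr8:84974484-84978718), an AP-1 subunit, stood at 3775, 2464, 2360 and 1906 CPM in blood and at 1721, 2169, 1917 and 1804 CPM in tumor. Jund (chr8:70698949-70700616), the most constitutive of the Jun genes, was at 1182, 1055, 945 and 827 CPM in blood and at 997, 923, 829 and 732 CPM in tumor, the narrowest fold range among the members. Jun (chr4:95049034-95052222) was at 297, 349, 285 and 227 CPM in blood and at 473, 577, 410 and 321 CPM in tumor. It was the only measured member whose WT control was not the highest of the blood groups.

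Egr1 (ENSMUSG00000038418) showed the widest spread over blood as a fold among the 9 measured members, at 1474, 512, 492 and 340 CPM, and stood at 263, 488, 293 and 220 CPM in tumor. Atf3 (chr1:191170296-191218039) was at 454, 229, 233 and 153 CPM in blood and at 365, 323, 516 and 464 CPM in tumor. Nr4a1 (chr15:101254269-101274795) was at 422, 349, 235 and 169 CPM in blood and at 275, 402, 278 and 275 CPM in tumor. In tumor the cKO control was the highest group for Egr1 and Nr4a1, and the IR groups were highest for Atf3.

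**Figure D1:**
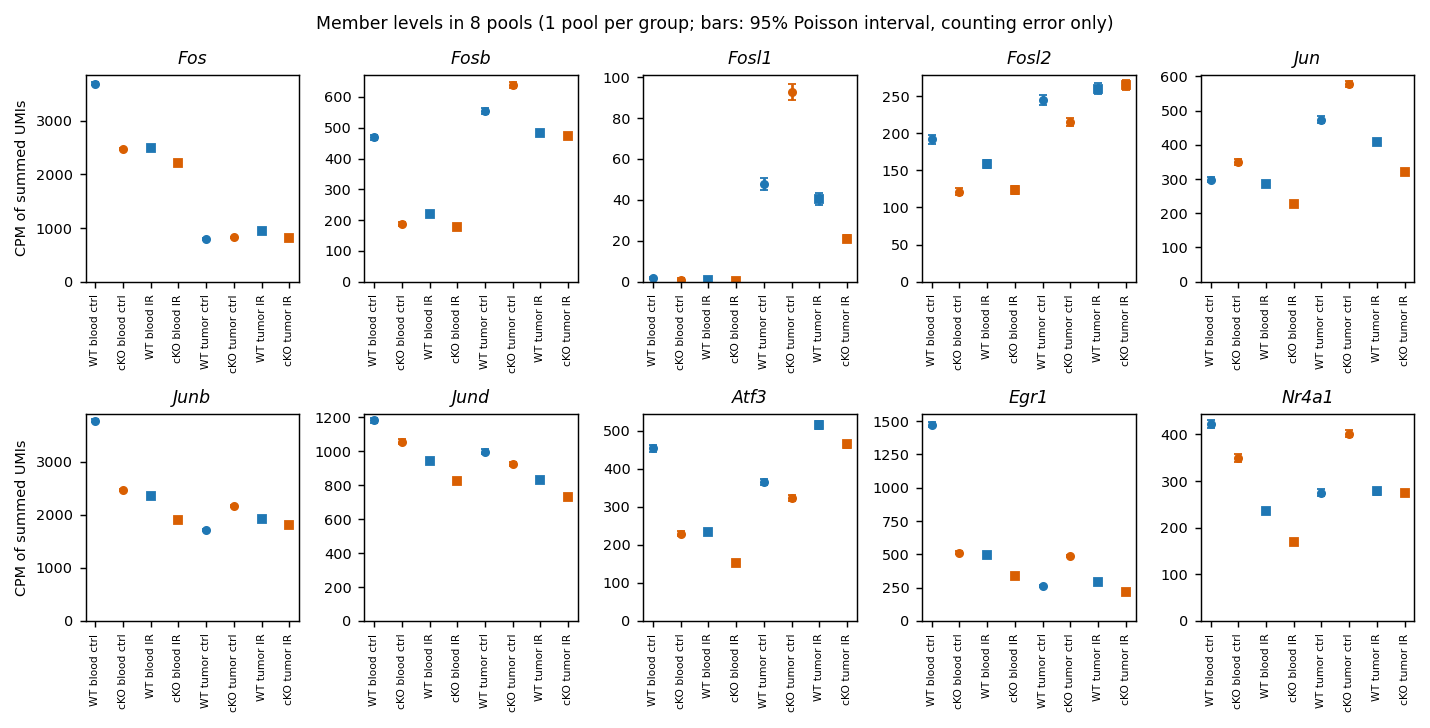
Each panel plots 1 member gene, with its level in CPM of summed UMIs on the vertical axis and the 8 groups on the horizontal axis. Circles are control and squares IR, blue is WT and orange cKO, and bars are 95% Poisson intervals that cover counting error only. WT control blood is the highest blood group for every member except Jun, and Egr1 there reaches 1474 CPM against 512 CPM or less in the other blood groups.

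Irradiation of the tumor was compared with no irradiation in the blood of WT mice. All 9 measured members were lower after IR, and 2 of 9 passed the limit of a 2-fold change (log2 ratio of 1 in size), against 1.32% of all genes measured. Egr1 fell from 1474 to 492 CPM, a log2 ratio of -1.58 (95% interval -1.61 to -1.55), and Fosb fell with a log2 ratio of -1.09 (-1.14 to -1.04). Atf3 (-0.96), Nr4a1 (-0.84), Junb (-0.68) and Fos (-0.56) stayed inside the limit, and Jun (-0.06) was nearest to no difference. The median of the members was -0.68, and the median of all measured genes was 0.03.

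In cKO blood the same comparison gave 1 of 9 measured members past the limit, against 1.4% of all genes. This was Nr4a1, with a log2 ratio of -1.05 (-1.11 to -0.99). Egr1 (-0.59), Jun (-0.62) and Atf3 (-0.58) were lower within the limit, while Fosb (-0.07) and Fosl2 (0.03) lay close to 0.

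Among control mice, cKO blood was lower than WT blood for 8 of 9 measured members. Egr1 had a log2 ratio of -1.53 (-1.56 to -1.49) and Fosb of -1.32 (-1.38 to -1.27), which made 2 of 9 past the limit against 2.22% of all genes. Atf3 (-0.99) lay at the edge of the limit, and Jun was the exception at 0.23. After IR, 0 of 9 members passed the limit between cKO and WT blood, against 0.633% of all genes, and the ratios ran from -0.61 for Atf3 to -0.18 for Fos. The WT control blood group enters both the IR and the genotype comparison, so these are not independent of each other.

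**Figure D2:**
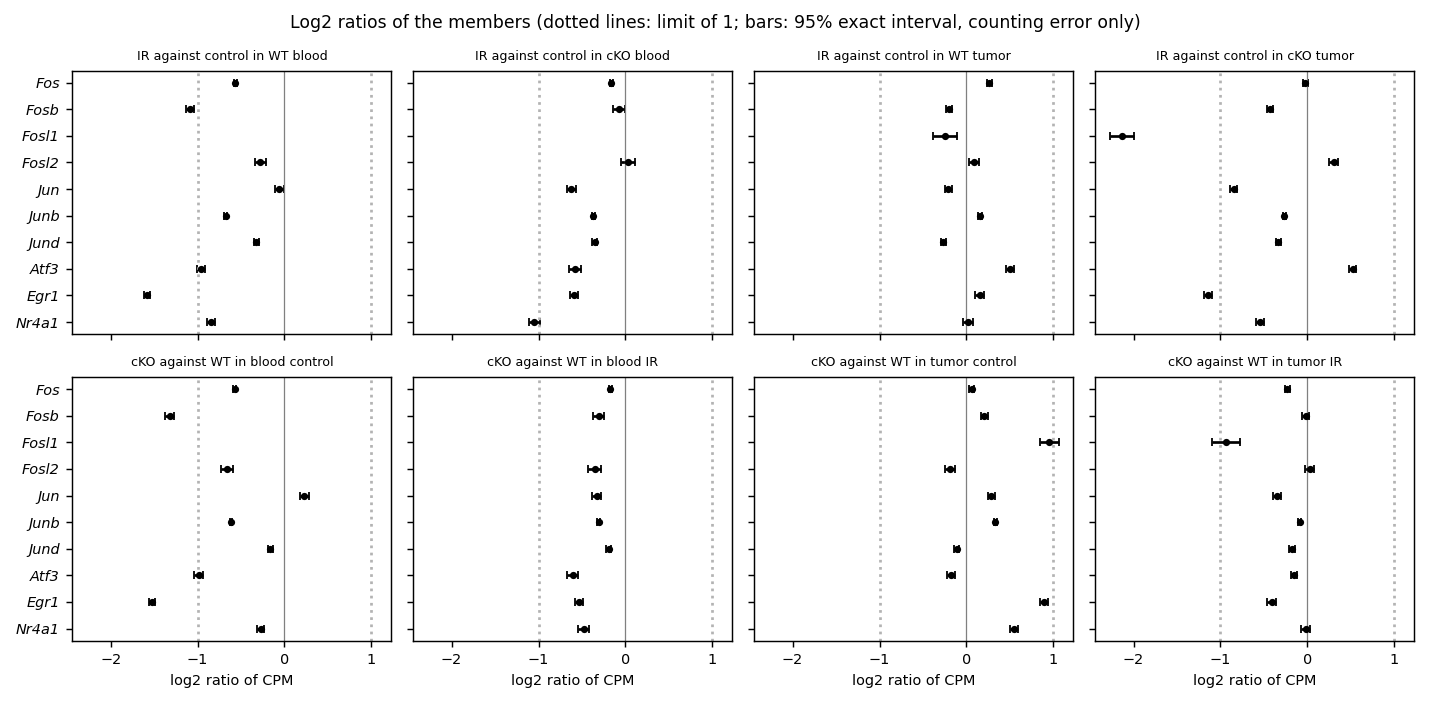
Each panel plots 1 comparison, with the log2 ratio of CPM on the horizontal axis and the measured members on the vertical axis, and bars are 95% exact intervals for counting error only. Dotted lines mark the limit of 1. Egr1 and Fosb lie beyond -1 in WT blood after IR and between cKO and WT control blood, and Fosl1 and Egr1 lie beyond -1 in cKO tumor after IR.

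The blood cells were then separated into classes by marker genes, after clustering without the members. Neutrophil-like cells made up 66.7% to 71.0% of each blood group, although the sort was for Ly6Chi cells. Egr1 in these cells was 2368 CPM in WT control, 481 in cKO control, 682 in WT IR and 476 in cKO IR. WT control stood apart and the other groups lay close together. When each cell was thinned to 1000 UMIs, 73.1% of WT control neutrophil-like cells (95% exact interval 71.5 to 74.6) had an Egr1 UMI, compared with 28.0%, 29.7% and 28.2% in cKO control, WT IR and cKO IR (86.2%, 39.6%, 43.9% and 44.0% before thinning). In NK cell-like cells of WT control blood, which should hold little Egr1, the thinned share was 1.99%, at a median of 3186 UMIs against 2494 in the neutrophil-like cells.

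Between cKO and WT control, 4 of 9 measured members passed the limit in neutrophil-like cells, against 3.75% of genes there. These were Egr1 (-2.30), Fosb (-1.62), Atf3 (-1.47) and Nr4a1 (-1.25), all lower over the whole class in cKO. In WT neutrophil-like cells 2 of 9 passed after IR, against 0.734% of genes, namely Egr1 (-1.80) and Fosb (-1.05). In cKO neutrophil-like cells 0 of 9 passed, against 2.37% of genes, and the ratios ran from -0.24 for Nr4a1 to 0.26 for Fosl2.

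The groups did not fill the neutrophil-like clusters equally. A cluster rich in the granule genes Ngp and Lcn2 held 427 cells of cKO control (16.9% of the class) but 27, 24 and 38 cells of WT control, WT IR and cKO IR, and its Egr1 level in cKO control was 59.0 CPM. Inside the largest cluster, led by Csf3r and Cxcr2, Egr1 was 2731 CPM in WT control, 986 in cKO control, 887 in WT IR and 702 in cKO IR. The log2 ratio of cKO to WT control there was -1.47 (-1.54 to -1.40), and that of IR to control was -1.62 in WT and -0.49 (-0.58 to -0.40) in cKO. In a cluster led by Retnlg and S100a9 the same 3 ratios of Egr1 were -2.02, -2.26 and -0.67, and in one led by interferon-induced Ifit genes the latter 2 were -1.66 and -0.28, with an interval of -2.21 to -1.81 for cKO against WT control. For cKO against WT control the other members named above had smaller ratios inside the largest cluster, at -0.88 for Fosb, -0.63 for Atf3 and -0.48 for Nr4a1, all inside the limit, and Nr4a1 was inside it in all 3 clusters. In cKO cells the ratios of IR to control were below 0 in all 3 clusters for Egr1, Nr4a1 (-0.82 to -0.66), Junb (-0.44 to -0.41), Atf3 (-0.51 to -0.14), Fosb (-0.41 to -0.16), Fos (-0.27 to -0.07) and Jund, none of them past the limit. Over the whole class they were nearer to 0 or above it, at -0.01 for Egr1, -0.24 for Nr4a1, -0.11 for Junb, 0.16 for Atf3 and 0.17 for Fosb.

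In monocyte-like cells, defined by Ly6c2, Ccr2 and F13a1, most members were lower after IR in both genotypes. In WT, 4 of 9 measured members passed the limit, against 0.795% of genes: Egr1 (-1.56), Atf3 (-1.36), Fosb (-1.28) and Nr4a1 (-1.17). In cKO, 3 of 9 passed, against 0.875% of genes: Egr1 (-1.18), Atf3 (-1.05) and Nr4a1 (-1.05). Egr1 stood at 878, 445, 297 and 196 CPM in WT control, cKO control, WT IR and cKO IR. Jun had a ratio of -0.01 (-0.09 to 0.08) in WT and of -0.85 (-0.95 to -0.76) in cKO. Between cKO and WT control 1 of 9 passed, against 0.571% of genes, namely Atf3 (-1.04). Control and IR cells did not fill this class alike. At a finer clustering, a cluster led by Tppp3 and Stxbp6 held 363 WT control and 201 WT IR cells of the class, and one led by Prtn3 and F13a1 held 185 and 447; in cKO these numbers were 270 and 147, and 150 and 408. After IR, Egr1 inside the former had a WT ratio of -1.15 (-1.25 to -1.05) and a cKO ratio of -0.69 (-0.83 to -0.56), and inside the latter these were -1.53 and -0.86 (-1.02 to -0.69). Atf3 (-0.79 and -0.74) and Nr4a1 (-0.54 and -0.68) were likewise inside the limit in cKO there. In WT, Atf3 (-0.999), Fosb (-0.999) and Nr4a1 (-0.65) were inside it in the Tppp3 cluster. They were past it in the Prtn3 cluster (-1.18, -1.04 and -1.06). Between cKO and WT control, Egr1 was -0.85 in the Tppp3 and -1.33 in the Prtn3 cluster. Fosb was -1.03 and -0.59 and Atf3 -0.98 and -1.09 in the same order.

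Nonclassical monocyte-like cells, defined by Ace and Treml4, kept every member inside the limit. After IR 0 of 9 passed in WT, against 0.485% of genes, and 0 of 9 in cKO, against 0.817%. Between cKO and WT control 0 of 9 passed, against 0.532%. The largest ratios were -0.88 for Egr1 in WT after IR, -0.91 for Nr4a1 in cKO after IR and -0.96 for Fosb between the genotypes. Egr1 and Atf3 (-0.54) were lower in cKO after IR, while Fos was at -0.10, and its ratio reached 0.075 under another clustering.

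In single cells more of the members were detected per cell in WT control blood. With each neutrophil-like cell thinned to 1000 UMIs, 56.6% of WT control cells had a UMI of 5 or more of the 10 members, compared with 23.2% in cKO control, 27.5% in WT IR and 21.7% in cKO IR. In monocyte-like cells these shares were 36.1%, 23.5%, 12.3% and 3.91%. Such shares rise with the member levels alone, and thinned neutrophil-like cells had a median of 16, 9, 9 and 8 member UMIs. Whether members were found together beyond their levels was not tested. The summed level of 12 heat-shock genes, which also respond to handling, was 1952, 1111, 1427 and 1171 CPM in the neutrophil-like cells of WT control, cKO control, WT IR and cKO IR. It was therefore also highest in WT control, and its part in the result was not tested. Because WT and cKO cells shared a library, library preparation was common to both, but their pools were prepared and stained before mixing, and genotype and pool cannot be told apart. Control and IR cells were in separate libraries.

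Blood cell types differed in which members they expressed. In WT control blood Nr4a1 was 885 CPM in nonclassical monocyte-like cells, 342 in monocyte-like and 292 in neutrophil-like cells. Jun was 107 CPM in WT control neutrophil-like cells, 338 in monocyte-like and 499 in nonclassical monocyte-like cells. Junb ran the other way, with 6129, 2290 and 2608 CPM in the same order, and so did Fosl2 with 363, 85.7 and 90.5 CPM. NK cell-like cells had 188 CPM of Fos and 33.2 CPM of Egr1 in WT control blood, far below the myeloid classes, while their Jund level was 1320 CPM.

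**Figure D3:**
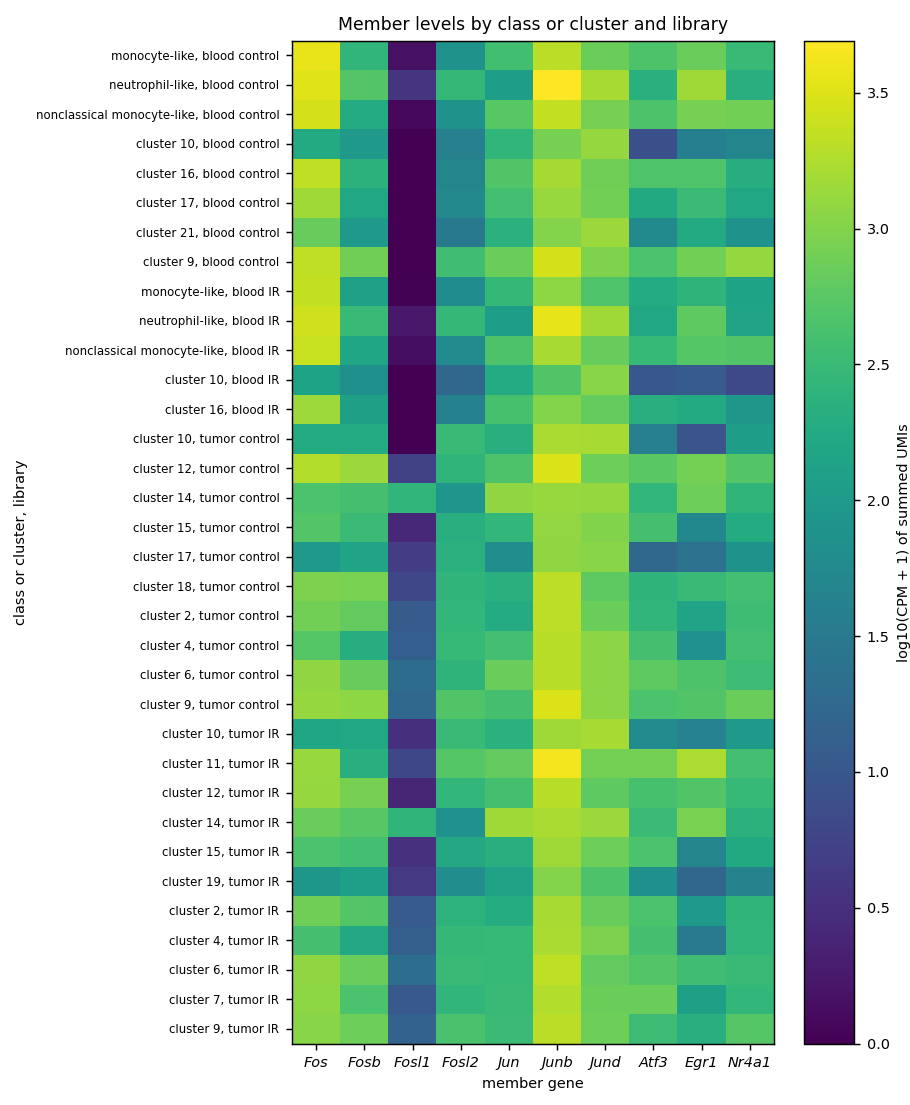
Rows are the classes or clusters of at least 50 cells in each library, columns are the member genes, and color gives log10(CPM + 1) of the summed UMIs. Fosl1 is bright only in cluster 14 (fibroblast-like), Egr1 is brightest in neutrophil-like cells of control blood and cluster 11 of IR tumor, and NK cell-like cells (cluster 10) are dark for Fos, Egr1 and Atf3.

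Free RNA in the droplets carried the members as well. In barcodes without a cell, Fos was 2851 CPM in control blood and 2367 in IR blood, against 3117 CPM in the cells of control blood. Nr4a1 was 2.22 times as high in empty droplets as in cells of control blood and 2.39 times in IR blood. Low member levels in a cell type can therefore hold free RNA. In WT control blood 16.4% of NK cell-like cells had a Fos UMI after thinning, against 94.4% of neutrophil-like cells.

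The hashtag minimum removed 7327 barcodes from control tumor and 4958 from IR tumor. Of these, 7325 and 4955 were tagged in the other tumor matrix. The control or IR label of a tumor cell thus rests on the matrix in which its barcode was tagged. This label was not tested otherwise, and all comparisons of IR with control tumor depend on it. In tumor, irradiation was compared with no irradiation for WT cells. No member passed the limit, 0 of 10 against 5.74% of all genes, and the ratios ran from -0.27 for Jund to 0.50 for Atf3 (0.46 to 0.54). In cKO tumor 2 of 10 members passed, against 22.3% of all genes, so the share of members was near the background. Fosl1 fell from 92.5 to 21.1 CPM (log2 ratio -2.13) and Egr1 from 488 to 220 CPM (-1.15, interval -1.19 to -1.10). Jun followed within the limit (-0.85), and Atf3 was higher (0.52). Inside clusters the Atf3 ratio was above 0 in 2 of 6 measured in cKO and in 4 of 6 in WT. Atf3 was highest in clusters 11 and 7 of IR tumor, at 842 and 718 CPM. These clusters held 563 and 1234 cells of IR tumor but 41 and 47 of control tumor.

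The fibroblast-like cells carried most of the Fosl1. They held 86.5%, 91.9%, 66.5% and 55.9% of the Fosl1 UMIs of WT control, cKO control, WT IR and cKO IR tumor, with 116, 251, 80 and 46 cells. With both genotypes summed, Fosl1 was 269 CPM in these cells in control tumor and 257 in IR tumor. In any other class or cluster it was at most 32.6 CPM in a group, in cluster 6 of WT IR tumor. Without them the Fosl1 ratio in cKO tumor after IR was -0.13 (-0.42 to 0.16) in place of -2.13. The Egr1 ratio then lay between -1.06 and -0.95 by its interval and that of Jun was -0.33, so the fibroblast-like cells moved Jun more than Egr1. These cells were also highest in Jun, at 1208 and 1482 CPM in control and IR tumor.

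Between cKO and WT control tumor 0 of 10 members passed, against 4.85% of all genes. Fosl1 (0.95), Egr1 (0.89) and Nr4a1 (0.55) were the highest ratios. Without the fibroblast-like cells Egr1 passed the limit at 1.11 (1.05 to 1.18), and Nr4a1 was 0.71. After IR 0 of 10 members passed between cKO and WT tumor, against 1.25% of all genes, and Egr1 was at -0.41.

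The higher Egr1 of cKO control tumor was found inside clusters. In cluster 2, macrophage-like cells with C1qa and class II genes, Egr1 was 76.3 CPM in WT control and 210 in cKO control (log2 ratio 1.46, interval 1.31 to 1.60), the only member of 10 past the limit against 1.32% of genes. In cluster 4, which took no name and was led by Adora2b and Cxcl10, Egr1 was 34.3 and 143 CPM (2.05, interval 1.74 to 2.38) and Nr4a1 275 and 603 CPM (1.13), so that 2 of 9 measured members passed against 1.07% of genes. In cluster 6, unnamed and led by Mmp13, Hspa1a and Arg1, Egr1 was 337 and 683 CPM (1.02), 1 of 9 against 2.41%. The ratio was above 0 in 7 of 7 clusters in which Egr1 was measured, and so was that of Nr4a1. These Egr1 ratios ran from 0.06 to 2.05. In clusters 12 and 14 Egr1 was 819 and 746 CPM in control tumor, and the highest ratio of any measured member was 0.25 in each. In barcodes of control tumor without a cell, Egr1 was 246 CPM, above its levels in clusters 2 and 4. The part of free RNA in those levels was not tested.

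After IR the cKO levels of Egr1 in clusters 2, 4 and 6 were lower again. In cluster 2 Egr1 was 102 CPM in cKO IR tumor (log2 ratio to cKO control -1.04), 1 of 10 past the limit against 4.37% of genes. In cluster 4 it was 24.1 CPM (-2.55) and Nr4a1 275 CPM (-1.13), 2 of 9 against 2.52%. In cluster 6 Egr1 was 344 CPM (-0.99) and Jun fell from 674 to 271 CPM (-1.31), 1 of 9 past the limit against 9.03%. Jun also fell in WT cluster 6 (-1.16), where the summed heat-shock level went from 10985 to 5162 CPM, and in cKO from 9134 to 4834 CPM; its part in the result was not tested. In WT tumor Egr1 was not lower after IR in clusters 2, 4 and 6 (0.33, 0.18 and 0.26).

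**Figure D4:**
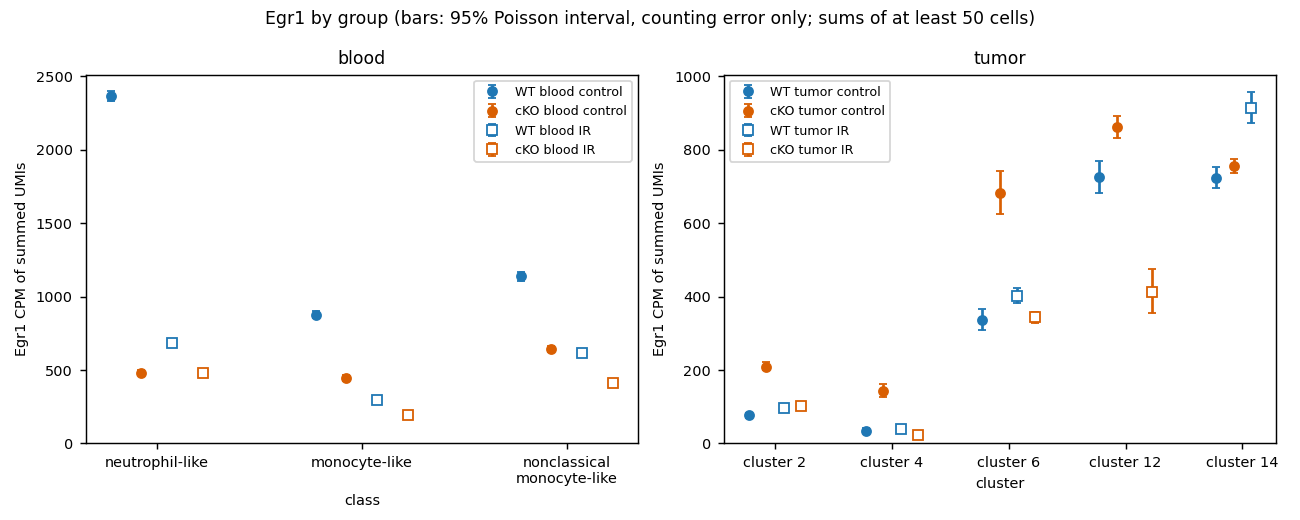
Egr1 in CPM of summed UMIs is plotted for 3 blood classes (left) and 5 tumor clusters (right), with filled circles for control and open squares for IR, blue for WT, orange for cKO, and bars for 95% Poisson intervals of counting error only. In blood the WT control is the highest group of each class, and in clusters 2, 4 and 6 of tumor the cKO control is the highest.

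Other tumor clusters had patterns of their own. Cluster 11, unnamed and led by Ccl3, G0s2 and Cxcl3, held 563 cells of IR tumor and the highest Egr1 of tumor, at 1740 CPM, with Junb at 4164, Atf3 at 842 and Fosl2 at 520 CPM. Cluster 12, macrophage-like cells led by Folr2 and Mrc1, had the highest Fosb of any class or cluster, at 1356 CPM in control tumor. The lowest Egr1 was in NK cell-like cells of control tumor, at 8.55 CPM.

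Tumor was set against blood within each genotype and treatment. Fos was lower in tumor in all 4 comparisons, with log2 ratios of -2.22 in WT control, -1.39 in WT IR, -1.58 in cKO control and -1.45 in cKO IR. Fosl1 was higher, between 4.87 and 6.69, but its blood levels rest on 34 UMIs or fewer, and without the fibroblast-like cells the ratios were 2.26 in WT control, 4.57 in WT IR, 3.37 in cKO control and 5.58 in cKO IR. In WT control 4 of 10 members passed, against 35.4% of all genes, with Egr1 (-2.49) and Junb (-1.13) also lower. In WT IR 4 of 10 passed against 32.3%, with Fosb (1.12) and Atf3 (1.14) higher. In cKO control 3 of 10 passed against 43.8%, with Fosb (1.77) higher, and in cKO IR 5 of 10 against 32.1%, with Atf3 (1.60), Fosb (1.41) and Fosl2 (1.10) higher. The shares of members lie near those of all genes, and the cell types differ between tissues. Summed heat-shock genes were 3125 to 3853 CPM in the blood groups and 5214 to 7674 CPM in the tumor groups, and the median mitochondrial share lay between 0.199% and 0.285% for blood cells and between 1.29% and 1.56% for tumor cells. Their part in these ratios was not tested.

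Of 32 other immediate-early genes in the matrix, 31 were measured in WT blood, and 0 rose and 3 fell past the limit after IR: Nr4a2 (-1.52) and Nr4a3 (-1.47), the relatives of Nr4a1, and Maff (-1.24), a small Maf factor. Their median was -0.39, and of all measured genes 0.348% rose and 0.972% fell past the limit. Against 1.57% of all genes, 6 of 31 were lower past the limit between cKO and WT control blood, led by Nr4a2 (-1.49), Maff (-1.30) and Egr3 (-1.29). In cKO tumor after IR 3 of 31 were lower, Myc (-1.83), Egr3 (-1.57) and Klf2 (-1.17), against 17.2% of all genes. In cKO against WT control tumor 1 was higher, Egr2 (1.15), against 3.53% of all genes. The tumor ratios of these lists include the fibroblast-like cells and were not computed without them. In tumor against blood Nr4a3 (5.04 to 7.30) and Nr4a2 (4.46 to 6.71) had the largest ratios of the list, although Nr4a1 stayed between -0.62 and 0.70.

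Genes that encode other bZIP partners or the kinases upstream moved less in blood. Of 14 measured partner genes 0 passed the limit in WT blood after IR (median 0.02), and of 17 measured MAPK and SRF genes 0 passed (median -0.01), against 1.32% of all genes. In cKO blood 1 of the 17 was lower, Dusp16 (-1.12), a MAPK phosphatase, against 0.979% of all genes. Atf5 was lower in tumor after IR, at -1.36 in WT and -2.03 in cKO. Among the heat-shock genes, 1 of 11 was lower in WT blood after IR, Hspa1b (-1.09), against 0.972% of all genes. In cKO blood 2 of 11 were lower, Hspa1a (-1.43) and Hspa1b (-1.40), the inducible Hsp70 genes, against 0.979% of all genes. In tumor 3 of 12 were lower in each genotype after IR, against 3.14% of all genes in WT and 17.2% in cKO. They were led by Hspb1 (-4.21) in WT and Hspd1 (-1.48) in cKO.

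Over 55 sums of a class or cluster and group, the gene most like Fos by Pearson correlation was Hacd4 (0.92), followed by Il6ra, Dusp1, Zfp36 and Cebpd. Those most like Nr4a1 were Hk2 (0.74), Wsb1, Degs1, Cebpb and Apoe, and those most like Jun were Laptm4a (0.66), Ssr3, Klf4, Rab9 and P4ha1. These sums share libraries and pools, and the correlations are given as a description over 2281 genes.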

How the data were processed

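The authors deposited unfiltered matrices of UMI counts for 4 10x Chromium 3′ v3.1 libraries, with 2 hashtag rows each. Per the submitters' processing notes, Cell Ranger 6.0.1 and Seurat 4.0.6 were used, although the matrix headers name an earlier Cell Ranger; the study's methods name mm10 with a GENCODE annotation. Counts were not normalized before deposit. Barcodes with at least 500 UMIs were called as cells by an order-of-magnitude threshold or by a test against ambient RNA, tested on simulated data. They were kept with at least 200 genes, at most 25% mitochondrial UMIs and at least 20 hashtag UMIs. The 6% of them with the highest Scrublet doublet score in each library were then removed (scanpy 1.11.5). A cell was WT if B0301 reached B0302, and cKO if B0302 was at least 4 times B0301. The hashtag minimum removed 7327 of 13144 barcodes of at least 500 UMIs in control tumor and 4958 of 12927 in IR tumor, of which 7325 and 4955 were tagged in the other tumor matrix. Cells were clustered with Seurat 5.3.0 (2000 variable genes without the members, Ythdf2, Lyz1 and Lyz2, 40 components, resolution 0.8). A cluster was named when at least 3 markers of a cell type were raised, more than of any other type. It took no name if another type had more markers among its 10 leading genes. Cluster 6 had 4 raised macrophage markers but took no name, as Pf4 of the platelet markers was among its leading genes.

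For each group, the UMIs of a gene over its cells were added up and scaled to 1000000 gene UMIs (CPM). A gene was measured with at least 100 UMIs in both groups together, and 1 UMI scaled to depth was added before the log2 ratio. Intervals are 95%, Poisson for levels, exact binomial for ratios and shares, and cover counting error only. All 10 members, the 3 largest ratios of each further list and the 5 genes most like Fos, Jun and Nr4a1 were to be named. The genes and lists were chosen with earlier results of these data known. Gene positions are from GENCODE vM21 (mm10). Alternatives changed the hashtag rule, cell calling, filters, scaling (TMM, edgeR 4.0.16), count minimum, added count and clustering resolution.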

Additional observations from a re-analysis of the deposited data

Results flagged for a closer look

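The difference in Egr1 between cKO and WT control mice had opposite signs in the tissues. The log2 ratio was -1.53 in blood and 0.89 in tumor, a gap of -2.42 on the log2 scale. Each ratio compares 1 pool with 1 pool, and the difference between the tissues was not tested. With 1 pool per group no sample could be checked against others of its group.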

How the results depend on the processing

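Counts of members past the limit stayed within 1.5 times the value reported in 157 of 168 recomputations. Other values moved beyond their counting interval more often: 77 of 80 recomputed shares of cells, 111 of 280 class levels, 281 of 1368 member log2 ratios and 3 of 40 levels in empty droplets. The shares were recomputed only with cells thinned to 2000 in place of 1000 UMIs. Greater depth by itself raises a share of cells with a UMI. In cKO blood after IR the count went from 1 to 2 with a minimum of 20 UMIs and with no minimum, which admit Fosl1. Of all genes, 406 of 11847 and 2466 of 16891 passed at these settings. In cKO against WT IR blood the count of members went from 0 to 1 with no minimum, where 2152 of 16939 genes passed. In cKO tumor after IR the count of members went from 2 to 1 with TMM factors, where Egr1 lay just inside the limit, and from 2 to 1 without fibroblast-like cells. Of all genes, 2267 of 10680 and 980 of 9618 passed there. In control tumor, cKO against WT, the count of members was also 1 in place of 0 without fibroblast-like cells, where 292 of 9441 genes passed. With a hashtag margin of 4 both ways, the count for cKO against WT tumor went from 0 to 1 in control and from 0 to 1 in IR. Of all genes, 826 of 10204 passed with that margin in control and 147 of 9894 in IR. That margin drops 1524 of 2525 WT cells of control tumor, whose Lyz2 level (7213 CPM) was not below that of the cells it keeps (6455 CPM). Within classes, for cKO against WT control blood, the count went from 1 to 0 in monocyte-like cells at resolution 1.2, and from 0 to 1 in nonclassical monocyte-like cells at resolution 1.2 and with all variable genes. At resolution 0.4 no blood cluster took either monocyte name. Removing fibroblast-like cells, clustering with all variable genes for ratios, the ratios inside neutrophil-like and monocyte-like clusters and the search for TGACG were chosen after seeing the data. No ratio past the limit changed sign. Depth limits Fosl1 in blood, at 34 UMIs or fewer per group.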
